A study of Mus musculus with 3 samples.

Results

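The Zfp36 family was described here by its H3K4me3 peaks, in 3 genes of the 21887 protein-coding genes annotated for mouse. The members, Zfp36, Zfp36l1 and Zfp36l2, were chosen by name with their values in these data known. Their peaks were all those lying within each gene or within 5 kb of it. This gave 24 peaks over 3 libraries, of which 7 were among the 22236 peaks of 0 h, 7 among the 23662 of 4 h and 10 among the 20669 of 12 h. Of the 24 peaks, 19 lay inside a member gene. Because peak position, width and covered length chose these genes, all their values are given as a description and none was tested.

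H3K4me3 is trimethylation of lysine 4 on histone H3, a mark found at the starts of genes that are active or ready to be. It was profiled by chromatin immunoprecipitation in granulosa cells, the somatic cells that line the follicle and surround the oocyte, from wild type C57BL/6 females at postnatal days 21 to 28. All mice had 4 IU of eCG, which drives follicle growth. The 0 h group was taken before hCG, and the 4 h and 12 h groups had 5 IU of hCG, which stands in for the LH surge that triggers ovulation and luteinization. Each time has 1 library, so no difference between times has a replicate check. The cells came from punctured follicles, and the number of mice behind a library was not stated. In such bulk lysates a wider mark per cell and a larger share of cells carrying it cannot be told apart.

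ZFP36 proteins, of which ZFP36 itself is also called tristetraprolin, carry a pair of CCCH zinc fingers that bind AU-rich elements in short-lived mRNAs. They bring in the CCR4-NOT complex, which shortens the poly(A) tail, and so speed decay of mRNAs for cytokines, growth regulators and prostaglandin synthase. Zfp36 is an immediate early gene in many cell types. In steroid-making cells the Zfp36l1 protein is known to act on Star mRNA, and the Zfp36l2 protein is known to bind the mRNA of the LH receptor and to be needed for female fertility. Phosphorylation through the p38 and MK2 kinases blunts their action on mRNA.

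Zfp36 (chr7:28376784-28379228, 2445 bp) and Zfp36l1 (chr12:80107760-80113013, 5254 bp) are on the minus strand in RefSeq's promoter table for the mm10 assembly (GRCm38.p6), so each starts at its higher coordinate. Zfp36l2 (chr17:84183924-84187947, 4024 bp) is not among the 2 members matched in that table, and its distances below are counted from its higher-coordinate end. The 250 bases before the annotated start of the matched members are shown because peaks inside both begin on the other side of that start. The nearest edge lay 49 to 68 bp inside Zfp36. In Zfp36l1 it lay 290 bp inside at 0 h, and 80 and 75 bp inside at 4 h and 12 h. Capitals mark the motif matches, and the last base printed is next to the start.
Zfp36, chr7:28379229-28379478, minus strand: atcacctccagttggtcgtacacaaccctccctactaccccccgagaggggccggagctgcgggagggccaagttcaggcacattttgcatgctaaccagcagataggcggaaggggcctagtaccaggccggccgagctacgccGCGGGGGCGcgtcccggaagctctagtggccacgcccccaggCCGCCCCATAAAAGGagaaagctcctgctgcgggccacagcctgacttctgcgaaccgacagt
Zfp36l1, chr12:80113014-80113263, minus strand: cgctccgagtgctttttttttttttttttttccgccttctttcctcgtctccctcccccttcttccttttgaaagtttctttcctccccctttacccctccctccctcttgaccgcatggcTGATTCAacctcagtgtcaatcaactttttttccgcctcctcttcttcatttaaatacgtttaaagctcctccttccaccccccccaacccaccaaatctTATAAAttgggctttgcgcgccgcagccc
In all 7 motifs were searched on both strands, and their frequency was counted in 32841 mouse promoter sequences of the same length. In Zfp36 the capitals cover, from left to right, a match to the EGR site GCGNGGGCG, found in 4.70% of promoters, then the SP1 GC box GGGCGG on the opposite strand (32.7%) and a CArG box, the element bound by serum response factor (1.47%). The GC box and the CArG box share 1 base. In Zfp36l1 the capitals are TGATTCA and the TATA box TATAAA (12.4%), which spans positions -29 to -24 counted from the start. TGATTCA matches the AP-1 search pattern TGANTCA, in which N is any base (6.75% of promoters). That share counts every base at N, and a T there need not make an AP-1 site. The CRE TGACGTCA (1.55%) and the NF-kB site (1.41%) had no match in either window. The Zfp36 sequence had 64.8% GC and an observed-to-expected CpG ratio of 0.69, and the Zfp36l1 sequence 48.4% and 1.01, against medians of 52.4% and 0.37 over all promoters. The Zfp36 promoter is thus the richer in GC and the Zfp36l1 promoter the less depleted of CpG, at percentile 94.8. A match is a match of letters and no evidence of binding.

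Facts of the libraries that bear on these genes are few. The lists give the extent of each peak and no height or read depth, so breadth, the number of bp under peaks, is the measure used. The narrowest peaks had 136, 139 and 152 bp at 0 h, 4 h and 12 h and the median widths were 306, 315 and 333 bp. Peaks covered 8.87, 10.1 and 8.93 Mb. Per the labels lane 5 carried the last time and lane 4 both earlier ones, and the peak names at 12 h lack a tag that the others carry, so lane and any change of calling setting cannot be told apart from time at 12 h. Of 9 granulosa markers 7, 8 and 6 had a peak at 0 h, 4 h and 12 h, with a summed 11062, 7398 and 3374 bp. Amh had none at any time, Inhba none at 0 h or 12 h, and Inha none at 12 h. Of 8 immune cell markers 1, 2 and 1 had a peak, with 838, 1668 and 891 bp in sum. Nearly all of it was at Cd68 (838, 1529 and 891 bp), and Ptprc, the pan-leukocyte gene, had 0, 139 and 0 bp. Of 6 endothelial markers 1, 2 and 1 had a peak (302, 517 and 164 bp), with Pecam1, Cdh5 and Tek at 0 throughout. Of 7 oocyte markers 2, 2 and 1 had one (1097, 1449 and 530 bp), with Bmp15, Zp1, Zp2, Zp3 and Ddx4 at 0. Theca and interstitial markers had peaks at 2 of 4 genes each time (1767, 2459 and 2419 bp), with Cyp17a1 and Insl3 at 0. Epithelial and stromal markers had peaks at 2 of 7 each time (905, 752 and 448 bp), with Upk3b, Col1a1 and Acta2 at 0. The part of other cells in the values below was not tested.

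The family divided by how its mark differed between times. Zfp36 had a sliver of mark before hCG, a wide block at 4 h and most of the gene at 12 h. Zfp36l1 was marked before hCG, widest at 4 h and narrower at 12 h. Zfp36l2 had blocks in overlapping places at every time, though their edges differed. Zfp36l3, the mouse paralog on chromosome X (chrX:53772686-53776394), had 0 covered bp at 0 h, 4 h and 12 h.

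**Figure D1:**
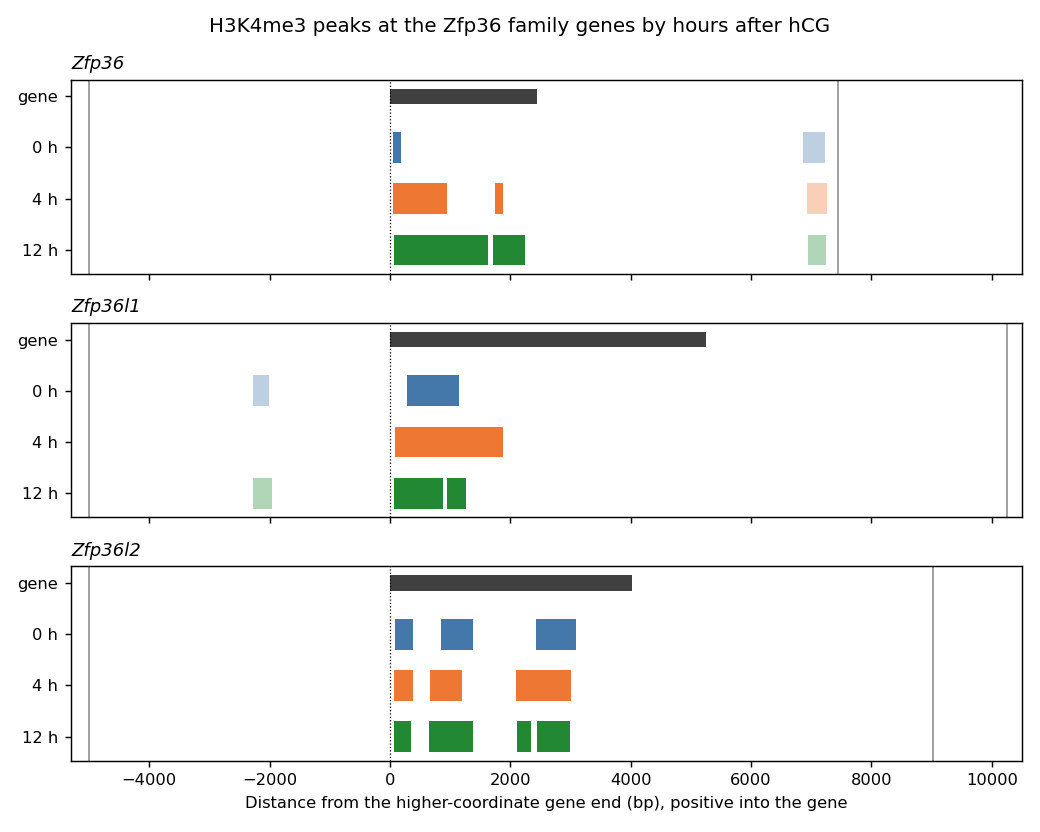
Peaks (colored bars, 1 row per time) along each gene (dark bar), by distance in bp from the higher-coordinate gene end, with grey lines at the limits of the 5 kb flanks and pale bars for peaks nearer another gene. The Zfp36 block is 137 bp wide at 0 h, and the farther peak of 12 h reaches 2235 bp into the gene. The 3 blocks of Zfp36l2 overlap between times, though their edges differ.

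Zfp36, the founding member, had 1 peak in the gene at 0 h, chr7:28379043-28379179. It was 137 bp wide, 1 bp above the narrowest peak of that library, and lay 49 to 185 bp inside the gene. At 4 h a peak of 899 bp (chr7:28378279-28379177) covered 135 bp of that place and reached 949 bp into the gene. The sliver had become the near edge of a wider block. A further peak of 145 bp, chr7:28377344-28377488, lay 1740 to 1884 bp inside and overlapped nothing at 0 h. At 12 h the main peak was 1567 bp wide (chr7:28377594-28379160) and reached 1634 bp into the gene. The far peak was 523 bp wide (chr7:28376993-28377515) and contained the whole far peak of 4 h. Only 78 bp separated these peaks of 12 h, where 790 bp had separated the pair at 4 h.

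In sum the peaks inside Zfp36 covered 137 bp at 0 h, 1044 bp at 4 h and 2090 bp at 12 h. These are 5.60%, 42.7% and 85.5% of the gene's length. Genes within 20% of its length that had any peak in them were covered over a median of 22.5%, 23.8% and 24.6%. Zfp36 thus lay below that median at 0 h and above it at 4 h and 12 h. At 12 h 2 of 240 such genes, Zfp36 among them, were covered to at least its extent. At 0 h 243 of 251 were.

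The blocks of Zfp36 differed at their far edge. The edge nearest the start lay 49, 51 and 68 bp inside the gene at 0 h, 4 h and 12 h, a range of 19 bp. The far edge of the last peak lay 185, 1884 and 2235 bp inside. At 4 h and 12 h that edge is of the separate far peak, only 145 bp wide at 4 h. The main peaks reached 949 and 1634 bp. The range of the near edge had a median of 36 bp over 6087 genes with 1 annotated start and a peak in their first kb at every time, and in 29.6% of them it was no larger than at Zfp36. A fixed near edge is therefore common. In the 2 kb before the start, the side that holds the promoter printed above, Zfp36 had 0 covered bp at each time. Among 7112, 7319 and 7071 starts with a peak within 2 kb, 55.5%, 55.2% and 59.4% likewise had none on that side.

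Bases marked at an earlier time were mostly still marked later. Of the 137 bp in Zfp36 at 0 h, 98.5% were covered at 4 h and 86.1% at 12 h, and of the 1044 bp at 4 h, 98.4% were covered at 12 h. Over the 2109 bp marked at any time, 118 bp (5.60%) were marked at all 3, 909 bp at 4 h and 12 h, and 1063 bp at 12 h alone. Over all 11607 genes with a peak at every time, with the whole window counted, the median share marked at all 3 times was 48.7% (quartiles 33.0% and 63.1%).

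One more peak lay in the Zfp36 window at each time, 4413, 4481 and 4494 bp beyond the gene's lower-coordinate end. It had 369, 332 and 312 bp and lay inside Plekhg2, whose end is 4103 bp from Zfp36. It differed little between the times at which Zfp36 itself differed most. With it the window had 506, 1376 and 2402 bp, at percentiles 20.7, 79.9 and 99.1 of all marked genes. The nearest peaks left out by the 5 kb limit lay 5372 bp away at 4 h (288 bp wide) and 5866 bp away at 12 h (156 bp), and 13778 bp away at 0 h.

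**Figure D2:**
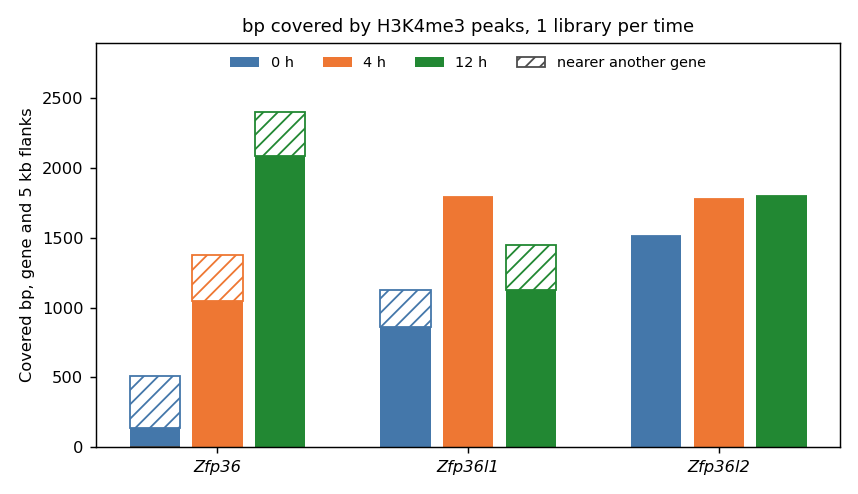
Covered bp in each gene and its 5 kb flanks at 0 h, 4 h and 12 h (bars, 1 library each), with hatched parts for peaks nearer another gene. The solid part for Zfp36 is 137, 1044 and 2090 bp, and for Zfp36l2 it is 1512, 1779 and 1797 bp.

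Zfp36l1 encodes the relative also called TIS11b. At 0 h it had a peak of 862 bp in the gene, chr12:80111862-80112723, which began 290 bp inside the start. At 4 h a single peak of 1790 bp (chr12:80111144-80112933) contained all of it. It was wider on both sides, beginning 80 bp inside the start and ending 1869 bp inside. At 12 h there were peaks of 804 bp (chr12:80112135-80112938) and 322 bp (chr12:80111747-80112068), 75 to 878 bp and 945 to 1266 bp inside the gene. The near edge of 4 h was kept at 12 h to within 5 bp and the far part was not.

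The peaks inside Zfp36l1 covered 862, 1790 and 1126 bp at 0 h, 4 h and 12 h. These are 16.4%, 34.1% and 21.4% of the gene, against medians of 12.1%, 12.5% and 12.1% in marked genes of like length. The highest value was at 4 h, when 18 of 621 such genes, Zfp36l1 among them, were covered at least as far. Of the 1790 bp at 4 h, 62.6% were covered at 12 h. Of the 1795 bp marked at any time, 796 bp (44.3%) were marked at all 3 and 603 bp at 4 h alone. The 44.3% lies within the quartiles over all genes with a peak at every time, 33.0% and 63.1%, which count the whole window. The near edge of Zfp36l1 ranged over 215 bp between times, and 80.3% of the 6087 genes had a range no larger.

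A separate peak before the Zfp36l1 start followed another course. It had 267 bp at 0 h, no peak at 4 h and 323 bp at 12 h, 2008 and 1961 bp from the gene. It lay inside Gm52006, a predicted gene whose end is 567 bp from Zfp36l1. With it the window had 1129, 1790 and 1449 bp. Its absence at 4 h fell on the time when the block inside Zfp36l1 was widest. The next peak beyond the window was over 5 kb off at every time, at 19067, 18468 and 19044 bp.

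At Zfp36l2 the 0 h and 4 h lists each had 3 peaks and the 12 h list had 4, all inside the gene. The block nearest the higher-coordinate end had 307, 326 and 273 bp and began 76, 61 and 73 bp inside. That range of 15 bp is the narrowest of the 3 members, and 22.2% of the 6087 genes had a range no larger. The middle block had 534, 538 and 739 bp, between 643 and 1384 bp inside. The far block had 671 bp at 0 h (chr17:84184852-84185522), 915 bp at 4 h (chr17:84184947-84185861), and at 12 h a pair of peaks of 543 bp (chr17:84184956-84185498) and 242 bp (chr17:84185598-84185839). Blocks in the same 3 places thus overlapped before and after hCG, though their edges differed. The middle block of 0 h shared 347 of its 534 bp with the peaks of 4 h.

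Zfp36l2 had 1512, 1779 and 1797 covered bp at 0 h, 4 h and 12 h, or 37.6%, 44.2% and 44.7% of the gene. Marked genes of like length had medians of 14.8%, 17.5% and 15.4%. At 0 h Zfp36l2 was the most widely covered member, both in bp and as a share of its length, and at 12 h Zfp36 was. Of the 2078 bp marked at any time in Zfp36l2, 1160 bp (55.8%) were marked at all 3. That share lies within the quartiles over all genes with a peak at every time, 33.0% and 63.1%, which count the whole window. The 3 peaks of Zfp36l2 at 0 h and its 3 peaks of 4 h were each overlapped at both other times. Of the 4 peaks at 12 h 3 were overlapped at 0 h and all 4 at 4 h. The share of all peaks so overlapped was not counted. The lncRNA gene Gm36279 begins or ends 97 bp beyond the higher-coordinate end, and no peak lay in the 2 kb on that side at any time. The next peaks beyond the window were 87243, 87326 and 277832 bp away.

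**Figure D3:**
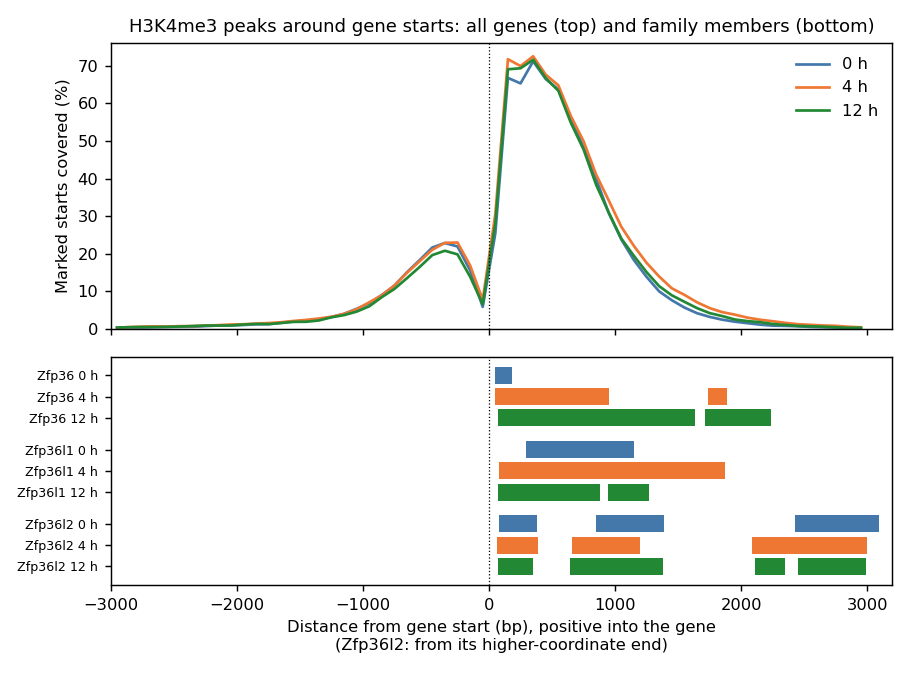
Top, percent of gene starts with a peak within 2 kb that are covered at each distance in bp from the start, by time. Bottom, the peaks of each member on the same axis (Zfp36l2 from its higher-coordinate end). At 150 bp into the gene 66.8%, 71.8% and 69.1% of starts are covered at 0 h, 4 h and 12 h, and all member peaks drawn, which leave out those nearer another gene, lie on that side.

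Most marked starts in these libraries were covered in the first part of the gene, as the members were, while few were covered as far in as the last block of Zfp36l2. At 350 bp before the start 22.8%, 22.9% and 20.7% of marked starts were covered at 0 h, 4 h and 12 h, and at 350 bp into the gene 71.2%, 72.6% and 71.6%. At 1550 bp into the gene the shares were 5.61%, 8.99% and 7.14%. The Zfp36 block of 12 h and the Zfp36l1 block of 4 h each covered that last position. For Zfp36l2 the position fell in the gap between its middle and far blocks at each time. At 2550 bp, which its far block covered at each time, 0.45%, 1.01% and 0.61% of marked starts were covered.

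To set the differences beside those of other genes, the log2 ratio of covered bp plus 100 bp in the gene and its flanks was taken for every protein-coding gene with a peak at either time, minus the median of those genes. A gene was counted as broader or narrower when it passed 2-fold on this scale. From 0 h to 4 h the ratio was 1.16 for Zfp36, 0.50 for Zfp36l1 and 0.10 for Zfp36l2. So 1 of 3 members was past 2-fold, where 8.74% of 13075 genes were broader and 4.44% narrower. From 4 h to 12 h the ratios were 0.90, -0.15 and 0.15. None of the 3 passed, where 4.45% of 13085 genes were broader and 8.22% narrower. From 0 h to 12 h they were 2.06, 0.35 and 0.25. Again Zfp36 passed alone, where 7.66% of 12885 genes were broader and 7.44% narrower. The 0 h and 4 h libraries each enter a pair of these comparisons, as does the 12 h library, and since these values chose the genes nothing is read from the counts.

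The neighbouring peak lowered the Zfp36 ratios. With peaks nearer another gene left out, the Zfp36 ratio was 2.15 from 0 h to 4 h, 1.08 from 4 h to 12 h and 3.23 from 0 h to 12 h, so that 4 h to 12 h also passed 2-fold. In the same order the Zfp36l1 ratios were 0.85, -0.48 and 0.37. The first and last of the Zfp36 ratios start from a single peak next to the narrowest width of its library, so their size depends on that floor. That of 4 h to 12 h does not start there. With peaks within 1 kb joined, the 4 h to 12 h ratio was 0.19, against 0.90 unjoined, both with the Plekhg2 peak counted. The 790 bp gap of 4 h then counts as marked. So do the bases of the window between the Plekhg2 peak and the next peak outside the window at 4 h.

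**Figure D4:**
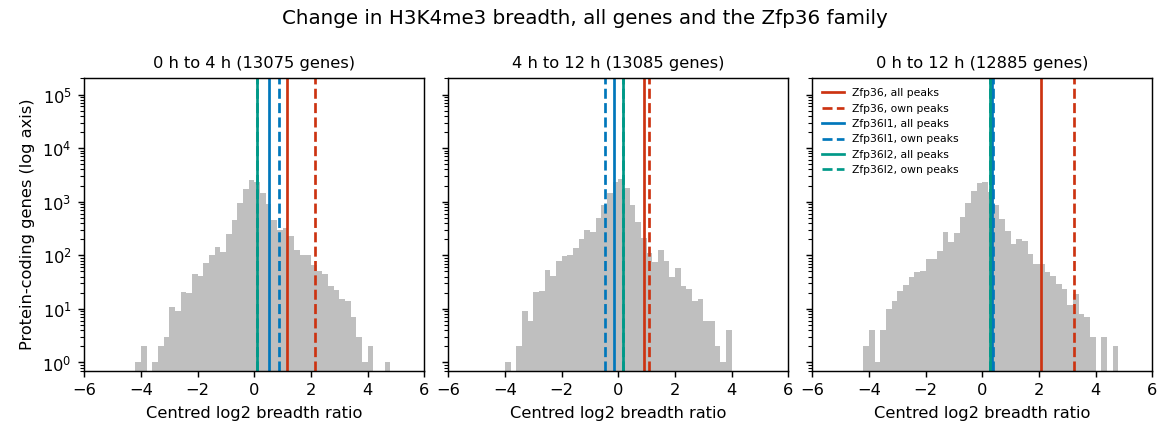
Centred log2 breadth ratios of all protein-coding genes with a peak at either time (grey, gene counts on a log axis) in the 3 comparisons, with each member as a solid line and, with peaks nearer another gene left out, as a dashed line. By the solid lines Zfp36 is at 1.16, 0.90 and 2.06, and Zfp36l1 and Zfp36l2 lie between -0.15 and 0.50.

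Genes with the most alike values over the 3 libraries were found by the distance between the 3 log2 values of covered bp plus 100 bp. For Zfp36 they were Bcat1, the cytosolic branched-chain aminotransferase gene (522, 1651 and 2410 bp at 0 h, 4 h and 12 h), Heg1 (627, 1368 and 1899 bp) and Lrrfip1 (355, 1222 and 2009 bp), at distances of 0.25, 0.42 and 0.51. For Zfp36l1 they were Gm52006, which has the same peaks in its window, Prep (1146, 1761 and 1483 bp, distance 0.04) and the splicing regulator gene Sfswap (1166, 1809 and 1422 bp, distance 0.05). For Zfp36l2 they were the neighbouring genes Hnrnpa2b1 and Cbx3, both with 1495, 1806 and 1824 bp, and Cdc14a with 1510, 1833 and 1805 bp. The closest genes to Zfp36 were farther from it than those of the other members were from theirs.

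The genes that work with these proteins were read from 6 lists of 112 genes. All 20 genes of the CCR4-NOT and deadenylation list had a peak, as did all 15 of decapping and 16 of the exosome and its Ski helper complex. None of these 51 genes was past 2-fold from 0 h to 4 h or from 4 h to 12 h, where 13.2% and 12.7% of all genes were in either direction. All 51 had a peak at every time, but the shares over all genes include genes with 0 bp at either time. The sets are thus unlike, and nothing is read from the difference. With peaks below the 25th width percentile left out, 2 deadenylation genes passed from 0 h to 4 h, and 1 deadenylation and 1 decapping gene from 4 h to 12 h. From 0 h to 12 h Cnot6, a catalytic deadenylase subunit, was narrower (1194, 834 and 448 bp at 0 h, 4 h and 12 h, ratio -1.22). So was Lsm7 of the ring that binds shortened tails (1039, 847 and 462 bp, barely past 2-fold). Median ratios from 0 h to 4 h were 0.22 for deadenylation, -0.21 for decapping and -0.02 for the exosome, against 0 for all genes by the centring, with quartiles of -0.27 and 0.32.

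Among 22 other RNA-binding proteins of mRNA stability, 20 had a peak at 0 h or 4 h, and 1 of these was past 2-fold, Igf2bp2 (0, 497 and 163 bp at 0 h, 4 h and 12 h), which binds and shields mRNAs. From 4 h to 12 h 1 of 21 was broader, Igf2bp3 (0, 0 and 152 bp), and 3 were narrower, Igf2bp2, Igf2bp1 (136, 256 and 0 bp) and Zc3h12b of the Regnase family of nucleases (155, 154 and 0 bp). From 0 h to 12 h Igf2bp2 and Igf2bp3 were broader and Igf2bp1 and Zc3h12b narrower, again of 21. Of all genes with a peak at either time, 8.74%, 4.45% and 7.66% were broader in the 3 comparisons. In the same order 4.44%, 8.22% and 7.44% were narrower. Several of the bp values of these list genes are single peaks near the narrowest width of their library. The median ratio of this list was 0.04, -0.01 and 0.07 in the 3 comparisons.

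Of 16 kinases, phosphatases and phosphoprotein adaptors that act on ZFP36, 15 had a peak. Mapkapk3, a kinase of the p38 branch, had 0, 644 and 598 bp at 0 h, 4 h and 12 h. The p38 activator gene Map2k3 had 359, 1151 and 847 bp, with a ratio of 1.33 from 0 h to 4 h. Both were broader at 4 h, and both were also past 2-fold from 0 h to 12 h. Dusp1, the phosphatase that switches p38 off, had 378, 782 and 919 bp and passed from 0 h to 12 h alone (1.11). So 2 of 15 were broader from 0 h to 4 h, where 8.74% of all genes were, and 3 of 15 from 0 h to 12 h, where 7.66% were. None was past 2-fold from 4 h to 12 h, but 2 were with narrow peaks left out and 1 was without centring.

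Of 23 genes whose mRNAs ZFP36 proteins are known to act on, 13 had a peak at 0 h or 4 h. Star, Ptgs2 and Cxcl2 were broader at 4 h, each from 0 bp at 0 h, with 1567, 794 and 171 bp. So 3 of 13 were broader, where 8.74% of all genes were. From 0 bp even the narrowest peak width of the 4 h library, 139 bp, passes 2-fold, and Cxcl2 lies near that width. At 12 h Ptgs2 and Cxcl2 had 0 bp and Star 757 bp. From 4 h to 12 h 2 of 15 were broader and 2 narrower, where 4.45% and 8.22% of all genes were. Il6 and Lif, both IL-6 family cytokine genes, had 0, 0 and 547 bp and 0, 0 and 514 bp, so their mark was seen at 12 h. Lhcgr, the LH receptor gene and known target of Zfp36l2, had 1198, 1314 and 1573 bp and passed 2-fold in no comparison, and was chosen outside the naming rule after its values were seen. The cytokine genes Tnf, Csf2, Il1b, Il2, Il3, Il10 and Ccl3, also picked after their values were seen, had 0 bp at each time.

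**Figure D5:**
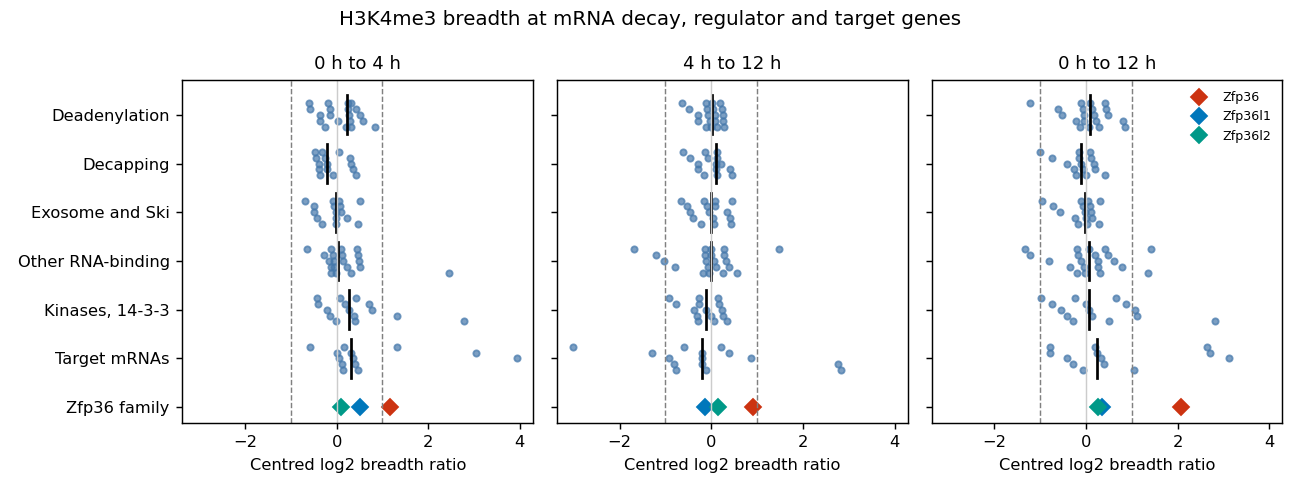
Centred log2 breadth ratios of the genes with a peak in the 6 lists (points, with the median as a bar) and of the members (diamonds) in the 3 comparisons, with dashed lines at 2-fold. With all peaks and centring as plotted, no deadenylation, decapping or exosome gene passes 2-fold in the first 2 comparisons. Target genes reach beyond it on both sides only from 4 h to 12 h.

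Over the 6 lists together, 6 of 99 genes with a peak (6.06%) were broader and 0 narrower from 0 h to 4 h, where 8.74% and 4.44% of all genes were. From 4 h to 12 h 3 of 102 (2.94%) were broader and 5 (4.90%) narrower, where 4.45% and 8.22% of all genes were. From 0 h to 12 h 9 of 100 were broader and 4 narrower, where 7.66% and 7.44% of all genes were. The broader shares lie close to the background and the narrower shares below it. These totals hold the 51 deadenylation, decapping and exosome genes, all with a peak at every time, so the sets are unlike. Nothing is read from either share.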

How the data were processed

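H3K4me3 peak lists of 3 libraries were used, 1 per time. The authors deposited for each the start and end of its peaks in bp, with no count or score. Per the submitters' processing notes, CASAVA 1.8, MACS2 2.0.9 and Bowtie2 2.2.3 were among the tools and mm10 was the build. The sources used here give no peak threshold, input use or depth, so the precision of a value is unknown. Peaks outside chromosomes 1 to 19, X and Y (5, 3 and 6) were left out. Gene positions and promoter sequences came from RefSeq tables of GRCm38.p6. Covered bp is the union of peaks clipped to the gene and 5 kb on each side. Overlap means at least 1 bp. Ratios used a pseudocount of 100 bp. With 1 library per time there is no test. The family, the gene lists and the rules were chosen with earlier results of these data known. Named list genes are those past 2-fold, at most 4 per list and comparison, and 3 most alike genes are named per member. The values of 1 list gene that this rule would name are not reported here. The calculation was tested on simulated peaks. Python 3.11.15, pandas 2.3.3 and numpy 2.4.6 were used. Flank width, peak filters, joining, pseudocount, centring and overlap were varied in 10 alternatives.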

Additional observations from a re-analysis of the deposited data

How the results depend on the processing

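Of 10 alternatives, each value was recomputed under those that enter it and were planned for it. Of 234 such values for the members and for the lists together, 196 stayed within 1.5 times of the first and, for ratios, on the same side of 2-fold, and 38 moved. Of 108 counts for single lists 18 moved, 8 of them with narrow peaks left out, and the exosome list had 1 gene past 2-fold from 4 h to 12 h with 2.5 kb flanks, as the deadenylation list had from 0 h to 4 h with equal numbers of the widest peaks. None of the ratios past 2-fold changed sign. No value of Zfp36l1 or Zfp36l2 moved except by joining peaks or by reciprocal overlap. With 2.5 kb flanks, which leave out the Plekhg2 peak, Zfp36 had 137 bp at 0 h and ratios of 2.15, 1.07 and 3.23 (0 h to 4 h, 4 h to 12 h, 0 h to 12 h), and with peaks nearer another gene left out 137 bp and 2.15, 1.08 and 3.23. With peaks within 1 kb joined, Zfp36 had 2354 bp at 4 h, 1834 bp of it in its first 2 kb, and ratios of 1.95 for 0 h to 4 h and 0.19 for 4 h to 12 h. Zfp36l2 then had 2940 and 2919 bp at 4 h and 12 h, and 1309, 1939 and 1927 bp in its first 2 kb at 0 h, 4 h and 12 h. With peaks below the 25th width percentile left out, Zfp36 had 0 bp in its first 2 kb at 0 h and a ratio of 1.05 for 4 h to 12 h. For the pairs of 0 h with 4 h and 12 h, 1 peak of its window was then overlapped in each direction, the one inside Plekhg2. With 20669 of the widest peaks per library the first 2 kb of Zfp36 also had 0 bp at 0 h. With reciprocal overlap of 50%, 1 peak of the Zfp36 window was shared for those pairs, again the one inside Plekhg2. Between 4 h and either other time 0 Zfp36l1 peaks were then shared. Over the lists, leaving out narrow peaks gave 10 broader and 1 narrower for 0 h to 4 h and 9 narrower for 4 h to 12 h. A pseudocount of 200 bp gave 2 narrower for 4 h to 12 h, and 4 broader and 1 narrower for 0 h to 12 h. Flank width does not enter the values for the first 2 kb. No paired analysis was possible because each time has 1 library. With no depth or peak height in the lists, a narrow or absent peak cannot be told from a shallow library.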
